A study of Arabidopsis thaliana with 6 samples.

Results

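LYK5, SOBIR1, RLP23 and MPK3 are 4 Arabidopsis thaliana genes of pattern recognition, the immune layer in which receptors at the plant cell surface detect microbial molecules. They are 4 of the 541 named genes in a pair of tables in which the authors listed probe sets that differed between the genotypes. All 4 are in the table of higher signals in the overexpression line. That table was selected on the same comparison that is described here, so the values of the 4 genes are given as a description and without a test.

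In pattern recognition, a receptor binds its ligand outside the cell, a partner kinase joins it, and the signal passes inward through cytoplasmic kinases, calcium, reactive oxygen and cascades of MAP kinases. LYK5 is a LysM receptor kinase that binds chitin, a component of fungal walls, and works with the kinase CERK1. RLP23 is a receptor-like protein that binds a peptide fragment of microbial NLP proteins and has no kinase domain of its own, and SOBIR1 is the receptor kinase that pairs with it and with other receptor-like proteins. MPK3 is a MAP kinase that acts downstream of many such receptors and is also activated by osmotic stress.

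Total RNA was measured on 6 Affymetrix ATH1 arrays. The overexpression group (OE) was 3 arrays of line OE-3, which overexpresses the NAC transcription factor gene ANAC069, and the knockout group (KO) was 3 arrays of line KO-2, the SALK_095231C insertion line of the same gene. All plants were 4 weeks old, and both groups had received 200 mM NaCl, with harvest at 3 h. The design text calls the 3 replicates of a genotype independent biological replicates. Each genotype is represented by 1 line, no source used here names the promoter behind the overexpression, and plants without salt and wild-type plants were not analysed here, so each difference below lies between the genotypes under salt. The plant organ is not named in the labels, and none of 4 leaf and root marker genes (0 of 4) had a named probe set with which to check it.

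The targeted gene followed the labels: ANAC069 had a signal of 2579 ± 357 in OE and 380 ± 14.4 in KO (SD, n = 3 each), although the place of its probes relative to the insertion is unknown here. Array medians lay between 150 and 186, and all arrays had been brought to a common trimmed mean of 500.0. In 3 of 6 control ratios of 3' to 5' signal, which serve as signs of RNA quality, every OE array was above every KO array. One of them, an actin ratio, ran from 5.11 to 5.79 in OE and from 3.41 to 4.48 in KO. The other actin ratio was higher and overlapped, at 16.5 to 20.5 in OE and 12.4 to 20.5 in KO.

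Each of the 4 genes was read by 1 named probe set. Genome positions below are those of the authors' deposited table, with no genome build given in the sources used here, and the part of the gene (exon, intron or UTR) that the probes touch was not analysed here. LYK5 (AT2G33580) was read by probe set 255844_at, aligned to the minus strand of chromosome 2, from 14219847 to 14221842. SOBIR1 (AT2G31880) was read by 263478_at, on the plus strand of chromosome 2, from 13554919 to 13556845. RLP23 (AT2G32680) was read by 267546_at, on the minus strand of chromosome 2, from 13859941 to 13862614. MPK3 (AT3G45640) was read by 252592_at, on the plus strand of chromosome 3, from 16756917 to 16758476. The deposited symbol of this last probe set is NAXT1, a nitrate transporter gene. Its deposited gene identifier and RefSeq transcript are those of MPK3, which is the name used here, and hybridisation of NAXT1 transcript to it was not tested. The deposited symbol names 1 of the 4 genes, RLP23, while LYK5 and SOBIR1 carry no symbol there and were found by their gene identifiers.

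All 4 genes had higher signals in OE than in KO under salt, and for none of the 4 did the genotypes overlap. LYK5, the chitin receptor gene, differed most, followed by SOBIR1, RLP23 and MPK3. The log2 differences, OE minus KO, ran from 2.79 for LYK5 to 1.06 for MPK3, and 433 of the 15922 probe sets tested (2.72%) were at least 1 higher on that scale. Among all probe sets tested, 2059 (12.9%) had every OE array above every KO array, and 2911 (18.3%) had every OE array below every KO array. The authors' lists were built from this contrast, so nothing is read from the count of 4 against that background. In RNA from whole samples, fewer cells of a type and less RNA per cell cannot be told apart.

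LYK5 had signals of 1259, 1632 and 2450.2 on OE replicates 1, 2 and 3, against 174, 255 and 288 on KO replicates 1, 2 and 3. The lowest OE array was 4.37 times the highest KO array, the widest gap of the 4 genes. The mean was 1780.5 ± 609 in OE and 239 ± 58.6 in KO (SD, n = 3 each), a log2 difference of 2.79 (SE 0.26), or 6.91-fold on the log2(signal + 16) scale. LYK5 also varied most within a genotype: its highest OE array was 1.95 times its lowest OE array, and its highest KO array was 1.65 times its lowest KO array. Ordered by log2 difference, LYK5 stood at place 14 of the 15922 probe sets tested.

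SOBIR1, the kinase partner of receptor-like proteins, had signals of 7295, 10906 and 10769 in OE, against 2284, 2464 and 3138 in KO. OE replicates 2 and 3 lay close together and OE replicate 1 below them, but the lowest OE array was still 2.32 times the highest KO array. The mean was 9657 ± 2046 in OE and 2629 ± 450.4 in KO (SD, n = 3 each). The log2 difference was 1.86 (SE 0.19), a 3.63-fold difference, at place 78 from the top.

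RLP23, the receptor-like protein that SOBIR1 serves, had signals of 1174, 1543 and 1322 in OE, against 592, 474 and 609.9 in KO. The groups were separated by a factor of 1.92 between the lowest OE and the highest KO array. The mean was 1346 ± 186 in OE and 559 ± 73.8 in KO (SD, n = 3 each), a log2 difference of 1.25 (SE 0.16), or 2.37-fold. The RLP23 signal thus differed between the genotypes by 0.62 less on the log2 scale than the SOBIR1 signal.

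MPK3, the MAP kinase gene, had signals of 5110.2, 5955 and 5070.2 in OE, against 2490.2, 2535 and 2667 in KO. Its arrays were the most even of the 4 genes: the SD was 9.29% of the mean in OE and 3.58% in KO, against 34.2% in OE and 24.5% in KO for LYK5. The mean was 5378 ± 499.7 in OE and 2564 ± 91.8 in KO (SD, n = 3 each), and the lowest OE array was 1.90 times the highest KO array. Its log2 difference of 1.06 (SE 0.12), 2.09-fold, was the smallest of the 4.

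**Figure D1:**
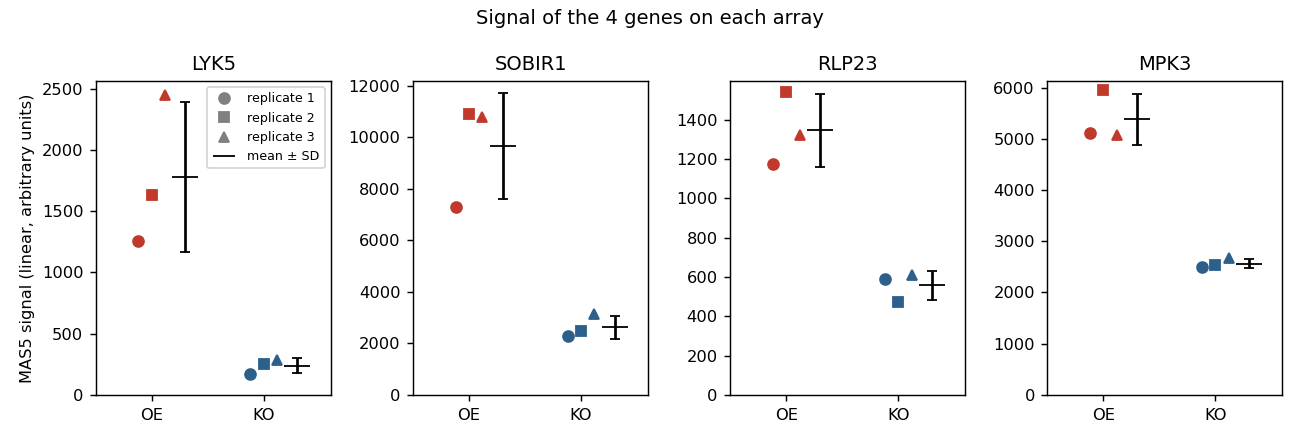
MAS5 signal of each gene (linear scale, arbitrary units) on the 3 OE arrays (left, red) and the 3 KO arrays (right, blue), with marker shapes for replicate numbers and black bars for the mean ± SD. Every OE point lies above every KO point in each panel, with LYK5 at 1259 to 2450.2 in OE and 174 to 288 in KO.

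The 4 differences were not of one size. Within arrays, the distance between LYK5 and MPK3 on the log2(signal + 16) scale was -2.01, -1.86 and -1.04 on OE replicates 1, 2 and 3, against -3.72, -3.24 and -3.14 on KO replicates 1, 2 and 3, so that the log2 difference of LYK5 exceeded that of MPK3 by 1.73. It exceeded that of SOBIR1 by 0.93 and that of RLP23 by 1.54. RLP23 and MPK3 were neighbours in this order. Their log2 differences were 0.18 apart, and the distance between this pair within arrays overlapped between the genotypes, at -2.11 to -1.93 in OE and -2.38 to -2.04 in KO. A distance between probe sets on 1 array has no meaning as a level, and only its change between the genotypes is read.

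The median log2 difference of the 4 genes was 1.55, beside -0.08 over all 15922 probe sets tested. The 4 genes were listed at a fold of at least 2 on this contrast, so nothing is read from that distance. Of all probe sets tested, 0.0816% lay above LYK5, 0.484% above SOBIR1, 1.61% above RLP23 and 2.39% above MPK3.

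**Figure D2:**
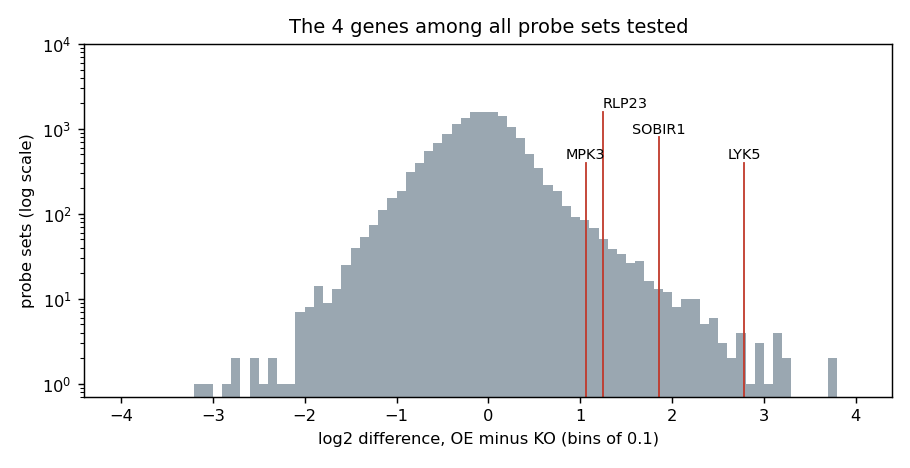
Number of probe sets (log axis) in bins of the log2 difference, OE minus KO, over the 15922 probe sets tested, with red lines at the 4 genes. MPK3 at 1.06 and RLP23 at 1.25 stand on the shoulder of the distribution, SOBIR1 at 1.86 and LYK5 at 2.79 in its thin upper end.

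Replicates of a genotype departed from their mean partly together. All 4 genes were below the OE mean on OE replicate 1, from -0.44 for LYK5 to -0.07 for MPK3 on the log2(signal + 16) scale, and all 4 were above the KO mean on KO replicate 3, from 0.28 for LYK5 to 0.06 for MPK3. On OE replicate 3 the genes parted, with LYK5 at 0.51 and SOBIR1 at 0.18 above the mean and RLP23 and MPK3 at -0.02 and -0.08. The deviations of LYK5 and SOBIR1 correlated at 0.80 over the 6 arrays, those of SOBIR1 and RLP23 at 0.65, and those of LYK5 and RLP23 at 0.11. With MPK3, the correlation was 0.68 for RLP23, 0.58 for SOBIR1 and 0.06 for LYK5. These are descriptions over 6 arrays, on which the genes share hybridisation and scaling.

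**Figure D3:**
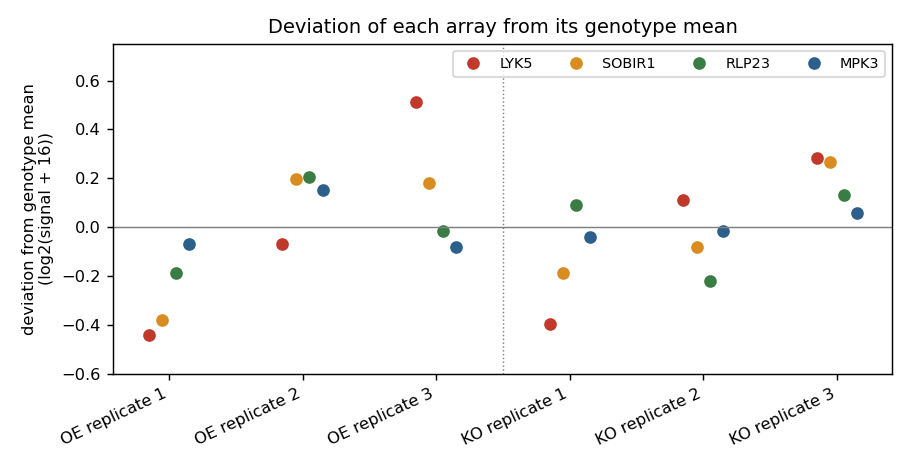
Deviation of each gene from the mean of its genotype, in log2(signal + 16) units, on the 3 OE arrays (left) and the 3 KO arrays (right). LYK5 has the widest spread, from -0.44 to 0.51 in OE and from -0.40 to 0.28 in KO, and MPK3 the narrowest.

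The order LYK5, SOBIR1, RLP23, MPK3 was the same in all 15 alternative settings that were run, but not all of them could change it. The changes of filter, replicate block and variance prior leave the differences as they were. Making array medians equal adds the same amount to each gene. With each array left out in turn, the log2 difference lay between 2.53 and 3.01 for LYK5, between 1.76 and 2.05 for SOBIR1, between 1.13 and 1.34 for RLP23 and between 0.99 and 1.10 for MPK3. With the mean log2 control ratio added to the fit, which was tried after seeing the data, the log2 differences were 3.53 for LYK5 (SE 0.22), 2.20 for SOBIR1 (SE 0.26), 1.20 for RLP23 (SE 0.25) and 1.05 for MPK3 (SE 0.20). That mean ratio was 1.73 to 1.97 in OE and 1.53 to 1.80 in KO.

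**Figure D4:**
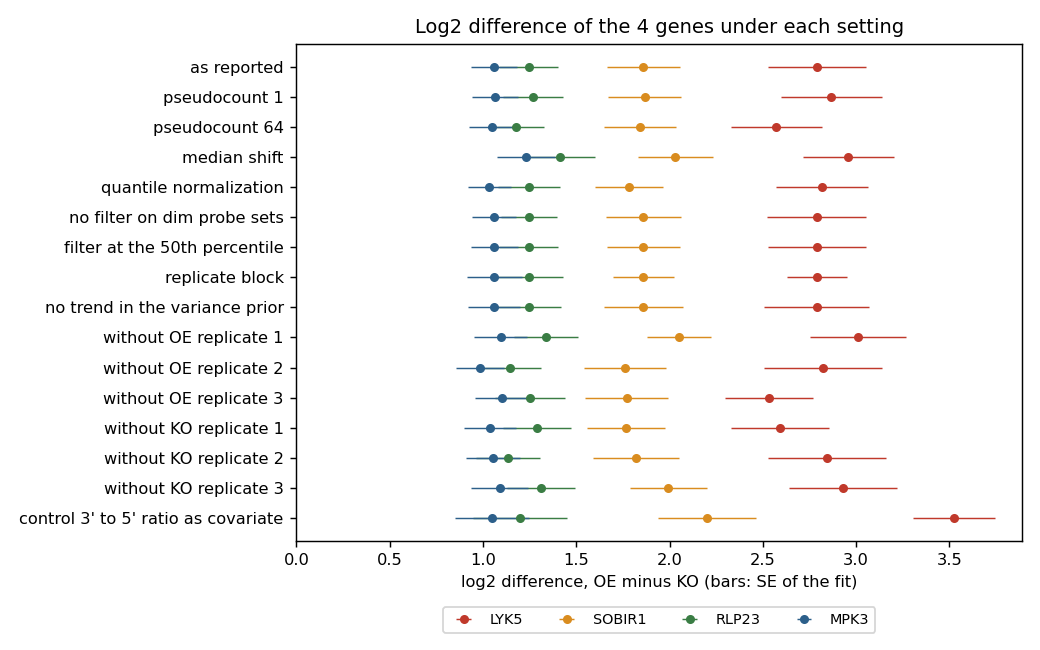
Log2 difference, OE minus KO, of the 4 genes as reported and under each of the 15 alternatives, with bars for the SE of the fit. LYK5 lies between 2.53 and 3.53 and MPK3 between 0.99 and 1.23, and the order of the 4 genes does not change. Some of the alternatives could not change it.

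The authors' deposited table gives folds of 7.32 for LYK5, 3.65 for SOBIR1, 2.41 for RLP23 and 2.09 for MPK3, without a pseudocount. Its limit is a fold of 2, and MPK3 lies nearest to it. None of the 4 genes lies outside the limit, and the genes just outside it have no name here.

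The 3 receptor genes lie close together on chromosome 2, within 666924 bases from the start of the SOBIR1 alignment to the end of the LYK5 alignment. The authors' deposited tables place 6 probe sets of the up table in that stretch, those of LYK5, SOBIR1, RLP23, AT2G31990, AT2G32030 and AT2G32150, and 4 of the down table, those of GALS1, PDLP3, HSP60-2 and AT2G33370. RefSeq (assembly TAIR10.1, used for gene order only) has 185 protein-coding loci from SOBIR1 to LYK5. Chromosome 2 held 15.5% of the 341 up probe sets and 19.5% of the 226 down probe sets, beside 15.7% of the protein-coding genes of the 5 chromosomes in RefSeq.

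The deposited Gene Ontology annotation of the 4 genes, read from a single column of identifiers, overlaps in part. Some terms of the other annotation columns, such as nucleus and membrane, are given to none of the 4 genes in that column. A term missing from it is therefore not taken as absent from the annotation. Protein phosphorylation is annotated to LYK5, SOBIR1 and MPK3, and kinase activity to LYK5, SOBIR1 and RLP23, the last of these by sequence similarity. Plasma membrane is annotated to LYK5 and SOBIR1, and defence response to RLP23 and MPK3. Response to chitin is annotated to MPK3 and not to LYK5 in that column, and 43 probe sets of the up table and 2 of the down table carry it. Kinase activity is carried by 40 up and 9 down probe sets, and defence response by 36 up and 1 down. The MPK3 probe set, whose deposited symbol is NAXT1, also carries oligopeptide transport, a term on 1 up and 3 down probe sets. Whether its terms mix those of MPK3 and NAXT1 was not tested.

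Other genes of pattern recognition were looked up from 8 lists with 96 loci. Of these, 20 had a named probe set, all because the authors had listed them on these samples, at a fold of at least 2. Their direction is therefore not independent evidence, and neither are their adjusted p-values or the counts that passed, here and in each list below. Nothing about the pathway is read from those counts against the shares of all probe sets. Higher signals in OE passed in 15 of the 20 (limma, Benjamini-Hochberg adjusted p under 0.05 over all 15922 probe sets, of which 3.03% passed as higher), and 0 passed as lower (1.84% of all probe sets tested passed as lower, and at an unadjusted p under 0.05 the 1 gene on the lower side, SERK1, passed). The median log2 difference of the 20 was 1.26. The other 76 loci, among them CERK1, FLS2, EFR, BAK1, BIK1, MPK4 and MPK6, were not analysed here, and so whether they differed is not known from these values.

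Among receptors, BIR1 stands nearest to SOBIR1 in function: it is a receptor kinase that holds back SOBIR1-dependent cell death, and SOBIR1 was named as its suppressor. BIR1 had signals of 2496, 3178 and 3972 in OE, against 1389.5, 1319 and 1421 in KO. It was higher in OE, with a log2 difference of 1.19 (SE 0.17, limma adjusted p = 0.0154), beside 1.86 for SOBIR1. PEPR1, a receptor for danger peptides released by the plant itself, had a log2 difference of 1.09 (SE 0.19, limma adjusted p = 0.0249), with signals of 596, 513 and 792 in OE and 239, 311 and 312 in KO. AT4G08850 had a log2 difference of 1.01 (SE 0.18, limma adjusted p = 0.0272). SERK1, a co-receptor kinase, was on the lower side, at 73.8, 101 and 56.1 in OE and 109, 187 and 164 in KO. Its log2 difference of -0.87 (SE 0.27) did not pass (limma adjusted p = 0.0919). The other 24 of the 28 receptor and co-receptor loci had no named probe set.

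In the MAP kinase cascade, 2 of 15 loci were named. MKK9, a MAP kinase kinase that can activate MPK3 and MPK6, had a log2 difference of 1.53 (SE 0.29, limma adjusted p = 0.0288), with 2413, 3675 and 3364 in OE and 695, 1578 and 1094 in KO. MPK11, a relative of MPK4, had signals of 275, 532 and 1020.0 in OE, against 123, 145 and 217 in KO. Its log2 difference was 1.66 (SE 0.41), larger than that of MPK3, but its OE arrays spread by a factor of 3.70 and it did not pass (limma adjusted p = 0.0569).

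Genes whose proteins are known MAP kinase substrates were named in 5 of the 12 loci of the list of phosphatases and substrates, and 4 passed as higher. WRKY33, a transcription factor phosphorylated by MPK3 and MPK6, had a log2 difference of 2.88 (SE 0.26). ERF6 was at 2.26 (SE 0.47), the ethylene synthesis gene ACS6 at 2.20 (SE 0.38) and MKS1, a substrate of MPK4, at 1.23 (SE 0.21). The KO arrays of these genes spread by a factor of 5.09 for ERF6, 2.69 for ACS6 and 1.69 for MKS1, and of 2.17 for WRKY33. ERF104 was at 1.37 (SE 0.35) and did not pass (limma adjusted p = 0.0608). No phosphatase of the list was named.

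All 3 named genes of the list of oxidative burst and calcium, out of 11 loci, passed as higher. They were named only because the authors had listed them on this contrast, so nothing is read from the count. RBOHD, the oxidase that makes extracellular reactive oxygen, had signals of 1463, 1787 and 1678 in OE, against 669, 735 and 1056 in KO, a log2 difference of 1.01 (SE 0.19). CPK28, a calcium-dependent kinase that limits the cytoplasmic kinase BIK1, was the most even of them, at 722, 791 and 789.6 in OE and 304, 402 and 313 in KO (log2 difference 1.15, SE 0.15). The channel gene CNGC20 was at 1.09 (SE 0.21).

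Of 6 ubiquitin ligase loci that dampen receptor signalling, PUB22 was named and passed as higher, with a log2 difference of 1.29 (SE 0.28). Its signals were dim, at 129, 74.9 and 94.9 in OE and 25.4, 29.9 and 36.4 in KO. Of 9 marker loci of the response to microbial patterns, 4 were named and 3 passed as higher: WRKY53 at 3.29 (SE 0.27), CNI1 at 2.20 (SE 0.25) and WRKY22 at 1.40 (SE 0.30). CYP81F2, a gene of indole glucosinolate synthesis, was at 1.08 (SE 0.31, limma adjusted p = 0.0752) and did not pass. AT5G47070, the 1 named locus of 11 in the list of receptor-like cytoplasmic kinases, was at 1.04 (SE 0.25, limma adjusted p = 0.05005, just above the threshold) and did not pass. None of the 4 loci around EDS1 was named (0 of 4).

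These pathway calls depend on single arrays. With all arrays 15 genes passed as higher, and 4 did without OE replicate 2 or without OE replicate 3, 8 without KO replicate 2 or without KO replicate 3, 14 without KO replicate 1 and 15 without OE replicate 1. WRKY33, WRKY53 and CNI1 (3 genes) passed in each of the 15 alternatives, those that leave out 1 array included. BIR1 did not pass without OE replicate 2 or KO replicate 2. With the control ratio as a covariate 9 genes passed, and without the trend in the variance prior 6 did.

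**Figure D5:**
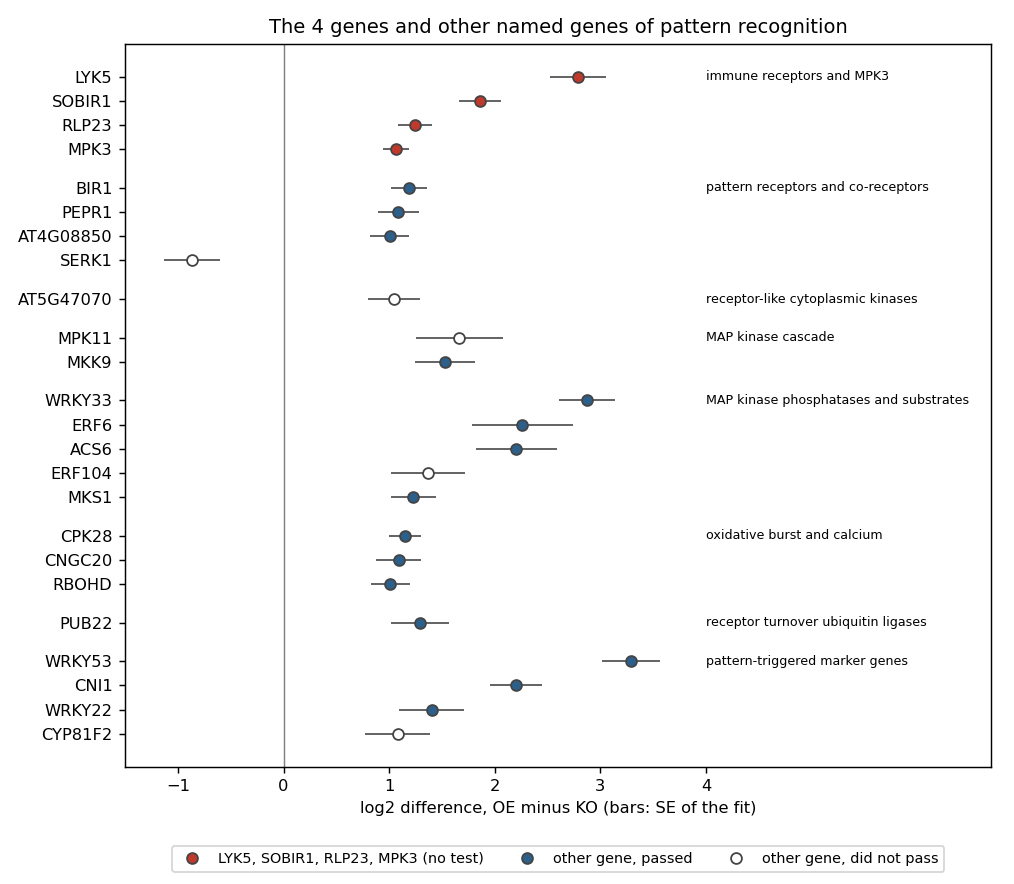
Log2 difference, OE minus KO, with the SE of the fit, of the 4 genes (red, no test) and of 20 other named genes of pattern recognition grouped by list (blue passed, white did not pass). All but SERK1, at -0.87, lie to the right of 0, and WRKY53 at 3.29 lies farthest out.

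The 536 other named genes compared all came from the authors' tables, which were selected on this contrast, and unnamed probe sets were not compared. Many had an array pattern close to that of each of the 4. Genes that separate the genotypes correlate with each other over these arrays. A Pearson r above 0.9 over the 6 arrays was found for 227 genes with LYK5, 222 with SOBIR1, 162 with RLP23 and 193 with MPK3. The 3 most alike were TET8, AT4G33985 and AT2G26190 for LYK5 (lowest r 0.994), WRKY53, NAC102 and EXO70B2 for SOBIR1 (lowest r 0.995), AT5G38210, RSH2 and CAD1 for RLP23 (lowest r 0.997) and AT3G51890, RSH2 and PUB17 for MPK3 (lowest r 0.989). On deviations from the genotype means, which leave the difference between the genotypes out, the 3 most alike were GR-RBP3, DREB2A and AT4G23610 for LYK5 (lowest r 0.973), EDA39, EXO70B2 and WRKY53 for SOBIR1 (lowest r 0.963), RSH2, AT5G38210 and CAD1 for RLP23 (lowest r 0.978) and BT2, CYP71B3 and AT1G78410 for MPK3 (lowest r 0.937). GR-RBP3 had a log2 difference of -1.27 (SE 0.31), against the direction of LYK5, although its deviations followed those of LYK5 at 0.985. EXO70B2 and WRKY53 stood among the nearest of SOBIR1 on both measures, and RSH2, AT5G38210 and CAD1 among the nearest of RLP23 on both. On the deviations, an r above 0.9 was found for 16, 18, 9 and 6 genes with LYK5, SOBIR1, RLP23 and MPK3 in that order, so these names describe 6 arrays and no more.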

How the data were processed

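The authors deposited a linear intensity for each of 22810 probe sets on 6 arrays, made with MAS5 per the submitters' processing notes (version not given in the sources used here). The authors' deposited tables list 341 up and 226 down probe sets each with an unsigned fold and a p-value. Their direction was checked: the signed log2 fold matched the deposited signals, OE over KO, to within 6.86e-06. Another 48 columns of per-array values match no sample label and were not used.

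Genes were named through the tables' gene identifiers and RefSeq (TAIR10.1): 541 of 567 probe sets carried 1 gene, 21 several, 4 none and 1 an identifier absent from RefSeq. Other probe sets are unnamed here. The 4 genes, the pathway lists and the rule for named genes (the 4 genes, the listed genes, and the 3 most alike by each measure) were chosen with earlier results of these data known.

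The fit was limma 3.58.1 in R 4.3.3 (lmFit, eBayes with trend) on log2(signal + 16), group as the only term, without the 64 control probe sets and those at or below the 30th percentile of mean log2 value. P-values were two-sided and adjusted over the 15922 left by the Benjamini-Hochberg method. Means and SDs are of linear signals. The steps were tested on simulated arrays. Alternatives changed the pseudocount, scaling, filter, replicate block, variance prior, arrays and a covariate. The number of arrays limits the precision.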

Additional observations from a re-analysis of the deposited data

How the results depend on the processing

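The log2 differences of LYK5, SOBIR1, RLP23 and MPK3 kept their sign in all 15 alternatives, but not all of these could change it. The filters, the replicate block and the variance prior leave the differences as they were. Leaving out 1 array cannot reverse a sign where the genotypes do not overlap. Shifts above 1 replicate SD were LYK5 at 3.53 and SOBIR1 at 2.20 with the control 3' to 5' ratio as a covariate. The other was MPK3, at 1.23 with array medians made equal. Equal medians raised all 4 genes by the same amount, to 2.96 for LYK5, 2.03 for SOBIR1, 1.42 for RLP23 and 1.23 for MPK3. MPK3 alone passed 1 replicate SD because its SD, 0.10, was the smallest of the 4. The median log2 difference of all probe sets tested became 0.09, in place of -0.08. The cause of the unequal medians and of the shifts with the covariate was not tested. Pseudocounts of 1 and 64 gave 2.87 and 2.57 for LYK5. Leaving out 1 array at a time gave 2.53 to 3.01 for LYK5, 1.76 to 2.05 for SOBIR1, 1.13 to 1.34 for RLP23 and 0.99 to 1.10 for MPK3. No gene of the 4 has another named probe set, so that alternative was not run. The count of probe sets higher in OE, 483, became 794 with the median shift, 261 without the filter on dim probe sets, 161 without the trend in the variance prior and 189 with the ratio covariate. The count of lower probe sets, 293, became 143, 76, 43 and 19 in the same order. Of the calls, 62.2% were higher as deposited, 84.7% with the median shift, 46.4% without OE replicate 1, 39.1% without KO replicate 1, and 86.8% to 95.6% without each other array in turn. Leaving out 1 array gave 66 to 548 higher and 7 to 852 lower probe sets. The 15 pathway genes higher became 6 without the trend and 9 with the ratio covariate, and 4 to 15 with 1 array left out, with 0 to 1 lower, SERK1 passing as lower without KO replicate 1. Replicate number as a block cannot move the 4 differences in this balanced design (2.79, 1.86, 1.25 and 1.06), so their values under it are no test. The SE fell from 0.26 to 0.16 for LYK5 and from 0.19 to 0.16 for SOBIR1. It rose from 0.16 to 0.19 for RLP23 and from 0.12 to 0.15 for MPK3. Under the block 238 probe sets were higher and 37 lower, and 10 pathway genes passed. Deviations of same-numbered arrays correlated at -0.24, -0.12 and 0.06. On replicates 1, 2 and 3, LYK5 deviated by -0.44, -0.07 and 0.51 in OE and by -0.40, 0.11 and 0.28 in KO. SOBIR1 deviated by -0.38, 0.20 and 0.18 in OE and by -0.19, -0.08 and 0.27 in KO. RLP23 went the other way, at -0.19, 0.20 and -0.02 in OE and 0.09, -0.22 and 0.13 in KO. MPK3 was at -0.07, 0.15 and -0.08 in OE and -0.04, -0.02 and 0.06 in KO. Whether same-numbered arrays shared a batch was not tested.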
